A study of Homo sapiens with 26 samples.

Results

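The glypicans and syndecans are the heparan sulfate proteoglycans that sit in the cell membrane. Of the 58735 genes of the deposited expression table, 9 carry the names that define the group described here: the glypicans GPC1, GPC2, GPC3, GPC4 and GPC6, and the syndecans SDC1, SDC2, SDC3 and SDC4. All 9 were found by gene name. The members were chosen with earlier results of these libraries known, among them the level of GPC3 in large and small CAL51 clones, so that difference is described without a test. GPC5, the other human glypican, was not in the list. It lay between 0.186 and 0.798 FPKM (fragments per kilobase of gene length, scaled per library) in CAL51, at no more than 0.0502 FPKM in HCT116 and at no more than 0.00853 FPKM in DLD1.

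Glypicans are held on the outer face of the membrane by a lipid (GPI) anchor, whereas syndecans cross the membrane and end in a short cytoplasmic tail. Both carry long sulfated sugar chains, built in the Golgi and trimmed at the cell surface, that bind FGF, WNT, Hedgehog and BMP ligands and present them to or keep them from their receptors. Glypicans can be released by cleavage of the anchor, for which NOTUM is a known enzyme, and syndecans by proteases that cut close to the membrane. In epithelia SDC1 and SDC4 are the syndecans usually found. GPC3 is best known as an oncofetal protein, abundant in the embryo and in liver cancer and low in most adult tissue.

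Established human cell lines were the source of all libraries. HCT116 and DLD1 are colorectal cancer lines, and CAL51 is a triple negative breast cancer line. Cells with doubled chromosome sets (4N) were obtained by a failed cytokinesis, induced for 20 hr with 75 µM blebbistatin in CAL51 and HCT116 and with 1.5 µg/mL DCB (dihydrocytochalasin B) in DLD1, and were cloned from single cells after 48 hr of recovery. The study classed 4N clones as large or small, and set them beside 2N clones and the untreated parental line. CAL51 had 3 large and 1 small 4N clones, 2 2N clones and 1 parental library. HCT116 had 3 large and 3 small 4N clones, 2 2N clones and 1 parental library, and DLD1 had 4 large, 3 small, 2 2N and 1 parental. Each clone is the offspring of 1 cell and gave 1 library, so a p-value measures the spread between clones. That spread was pooled, gene by gene, over the groups of all 3 lines, so it also comes from lines outside a comparison. The drug differed between DLD1 and the other lines, so drug and line cannot be told apart. All 4N clones came from drug-exposed cells, and no exposure is listed for the 2N clones. Ploidy and past drug exposure therefore cannot be told apart either.

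The 26 libraries held 23.5 M to 44.5 M reads in genes (median 32.5 M). The epithelial gene EPCAM lay between 53.4 and 354 FPKM in all of them. CDH1 lay at 70.0 to 126 FPKM in DLD1 and 1.92 to 26.2 FPKM in HCT116. In CAL51, CDH1 lay at 0.193 to 11.1 FPKM, with 4 of 7 libraries under 1 FPKM. KRT19 was at 2.28 to 93.7 FPKM in CAL51, against at least 296 FPKM in the other lines. KRT8 and KRT18 reached at least 32.5 and 53.1 FPKM in every library. CDX2, a colon transcription factor, reached 38.5 to 81.8 FPKM in DLD1 and 4.28 to 8.02 FPKM in HCT116, while CDX1, VIL1 and LGALS4 were below 0.1 FPKM in HCT116. In DLD1, CDX1 was at or below 0.061 FPKM, LGALS4 at or below 0.986 FPKM and VIL1 at a median of 0.645 FPKM. KRT20 ranged over 0 to 41.8 FPKM in DLD1 and 0.191 to 2.58 FPKM in HCT116. In CAL51 the breast genes KRT5 and KRT14 had no reads, GATA3 stayed at or below 1.13 FPKM, ESR1 and PGR were near 0, and ERBB2 lay between 14.9 and 22.8 FPKM. The markers of breast epithelium were therefore absent or low, and the line is called CAL51 here by its label.

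Promoter sequence was available from RefSeq (GRCh38.p14) for 7 of the 9 members, as 8 windows of 250 bases before a start site. The windows of 3 members are printed in lower case with each CG pair in capitals: that of GPC4, the glypican that varied most between clones of the colon lines; that of GPC6, the member with almost no reads; and that of SDC4, the syndecan that varied most in DLD1. They lie at chrX:133415490-133415739 (minus strand), chr13:93226557-93226806 (plus strand) and chr20:45348425-45348674 (minus strand).

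GPC4: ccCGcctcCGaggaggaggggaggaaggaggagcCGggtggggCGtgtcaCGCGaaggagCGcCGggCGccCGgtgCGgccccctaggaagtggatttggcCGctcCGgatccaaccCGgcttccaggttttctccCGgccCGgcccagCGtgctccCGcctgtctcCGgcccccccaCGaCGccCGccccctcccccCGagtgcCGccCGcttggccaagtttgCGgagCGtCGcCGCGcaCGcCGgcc

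GPC6: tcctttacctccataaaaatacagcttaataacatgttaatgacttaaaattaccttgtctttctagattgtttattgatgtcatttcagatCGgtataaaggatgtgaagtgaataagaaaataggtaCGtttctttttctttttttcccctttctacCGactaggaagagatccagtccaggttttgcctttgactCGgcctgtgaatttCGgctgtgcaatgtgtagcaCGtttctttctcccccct

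SDC4: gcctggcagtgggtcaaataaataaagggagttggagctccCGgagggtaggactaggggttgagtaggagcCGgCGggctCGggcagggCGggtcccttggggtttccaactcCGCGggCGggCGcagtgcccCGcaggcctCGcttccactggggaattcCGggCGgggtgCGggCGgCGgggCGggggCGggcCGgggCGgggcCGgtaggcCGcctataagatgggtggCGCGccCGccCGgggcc

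The GPC4 window holds 32 CG pairs and is 76.0% G or C, and the SDC4 window holds 26 and is 73.6%. The GPC6 window holds 6 CG pairs and is 37.6% G or C. Among the 35116 promoter windows of the same length, the median was 11 CG pairs. At least as many as in GPC4 were found in 9.52% of them, as in SDC4 in 19.6%, and as in GPC6 in 61.9%. The motif GGGCGG, searched on both strands, was found in 7 of the 8 member windows and in 42.6% of all windows, and GPC6 was the member without it. TATAAA, on either strand, was found in the GPC6 window alone among the members and in 10.7% of all windows. These matches describe letters in the windows and are not binding sites.

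The 3 lines carried different proteoglycan coats at the RNA level. FPKM values are per length, so the members can be ranked within a line by their levels. In CAL51 the mean levels over 7 libraries ran from GPC3 at 205 ± 122 FPKM (SD) through SDC2 at 143 ± 27.9, SDC1 at 54.3 ± 10.8, GPC1 at 37.9 ± 19.5, GPC4 at 30.9 ± 23.2, SDC4 at 17.7 ± 12.2 and SDC3 at 10.6 ± 4.73 to GPC2 at 0.562 ± 0.4. In HCT116 the order over 9 libraries was SDC4 at 61.7 ± 16.3 FPKM, GPC1 at 37.7 ± 12.4, SDC1 at 18.7 ± 8.75, SDC3 at 14.6 ± 2.71, GPC4 at 6.44 ± 2.64, GPC2 at 2.03 ± 0.688 and GPC3 at 0.394 ± 0.217. In DLD1 it was SDC4 at 40.2 ± 23.9 FPKM, SDC1 at 38.0 ± 6.78, GPC1 at 34.9 ± 4.71, SDC3 at 3.31 ± 0.498, GPC4 at 1.65 ± 1.53, GPC2 at 0.408 ± 0.101 and GPC3 at 0.0596 ± 0.0511, over 10 libraries. Most neighbours in these orders overlapped. The neighbours whose ranges over libraries stayed apart were SDC2 and SDC1, SDC3 and GPC2, and GPC2 and GPC6 in CAL51, SDC3 and GPC4, and GPC3 and SDC2 in HCT116, and GPC1 and SDC3, and GPC2 and GPC3 in DLD1.

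**Figure D1:**
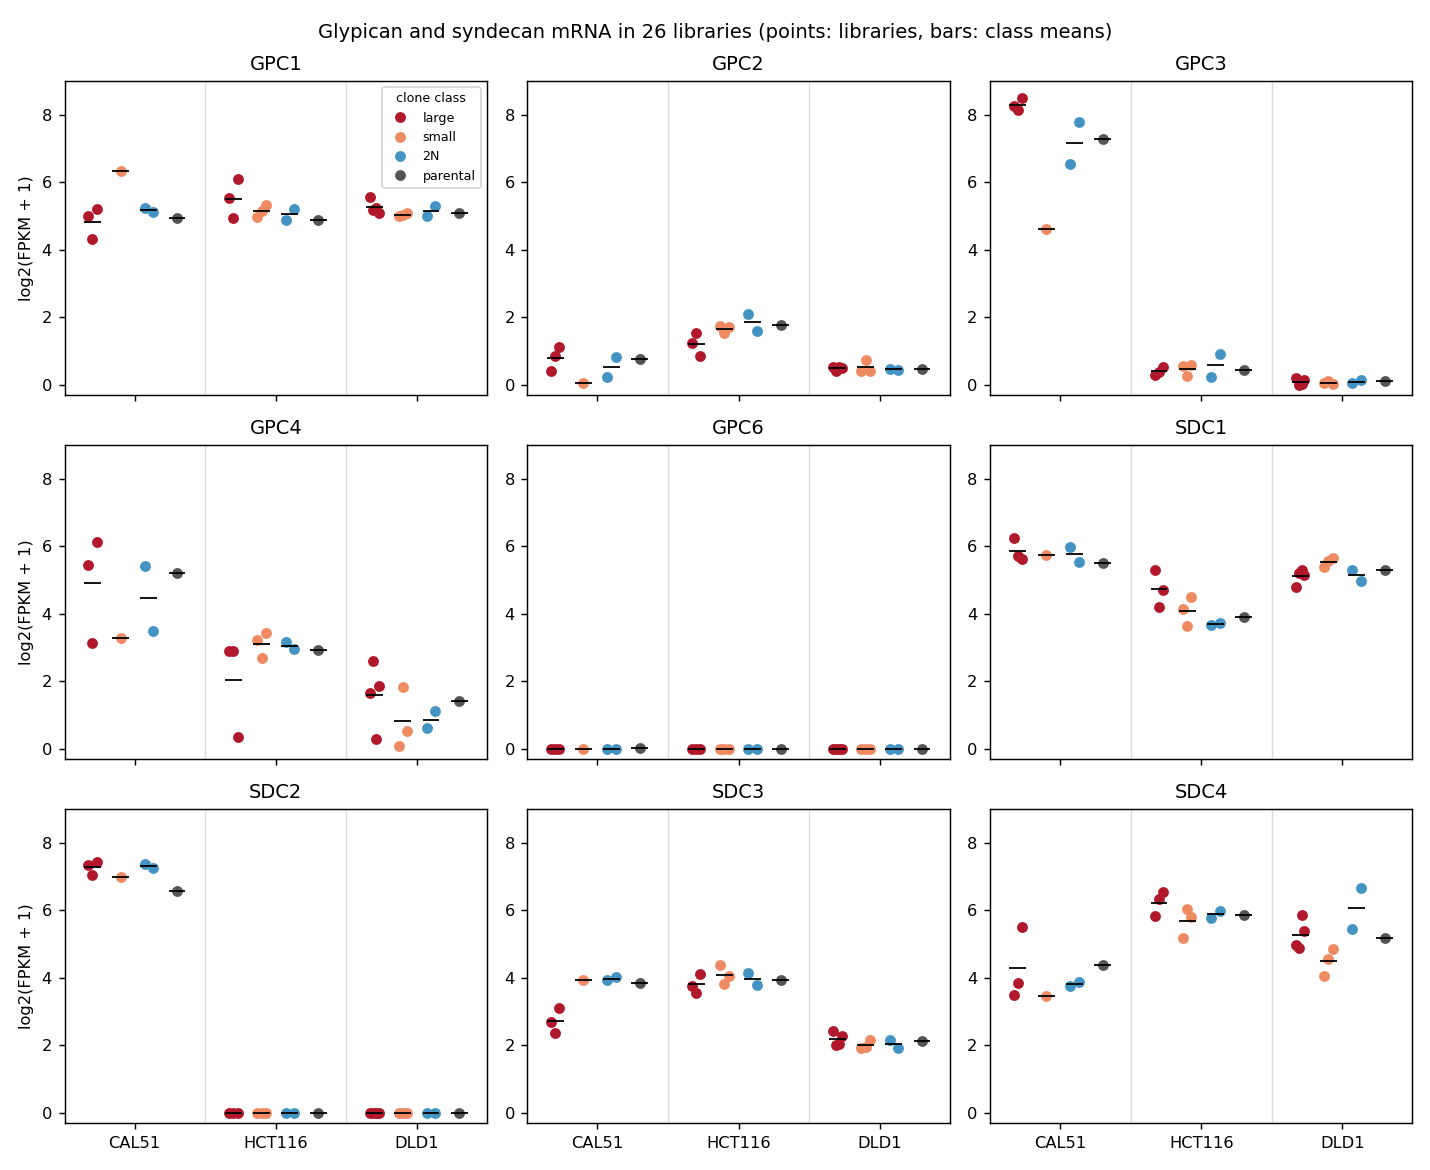
Level of each member (vertical axis, log2(FPKM + 1)) in every library, with 1 panel per member and the libraries set out by cell line and by class (large 4N, small 4N, 2N and parental). Points are libraries and horizontal bars are class means; GPC3 and SDC2 are high in CAL51 alone, GPC1 lies between 18.9 and 80.2 FPKM in every library, and GPC6 lies at 0 or close to it throughout.

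Summed over the 9 members, the level was 315 to 744 FPKM in CAL51 (median 489), 113 to 202 FPKM in HCT116 (median 133) and 90.3 to 173 FPKM in DLD1 (median 113). The glypicans made up 35.7% to 63.2% of that sum in CAL51, with a median of 56.2%, against medians of 33.5% in HCT116 and 31.4% in DLD1. GPC3 and SDC2 alone had median shares of 44.7% and 25.8% in CAL51. In HCT116 the highest share was that of SDC4, with a median of 45.4% (31.0% to 54.9%). In DLD1 the sum was spread over 3 genes, with median shares of 33.2% for SDC1, 29.5% for SDC4 and 29.1% for GPC1. These libraries are of bulk RNA, in which fewer expressing cells and less RNA per cell cannot be told apart.

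**Figure D2:**
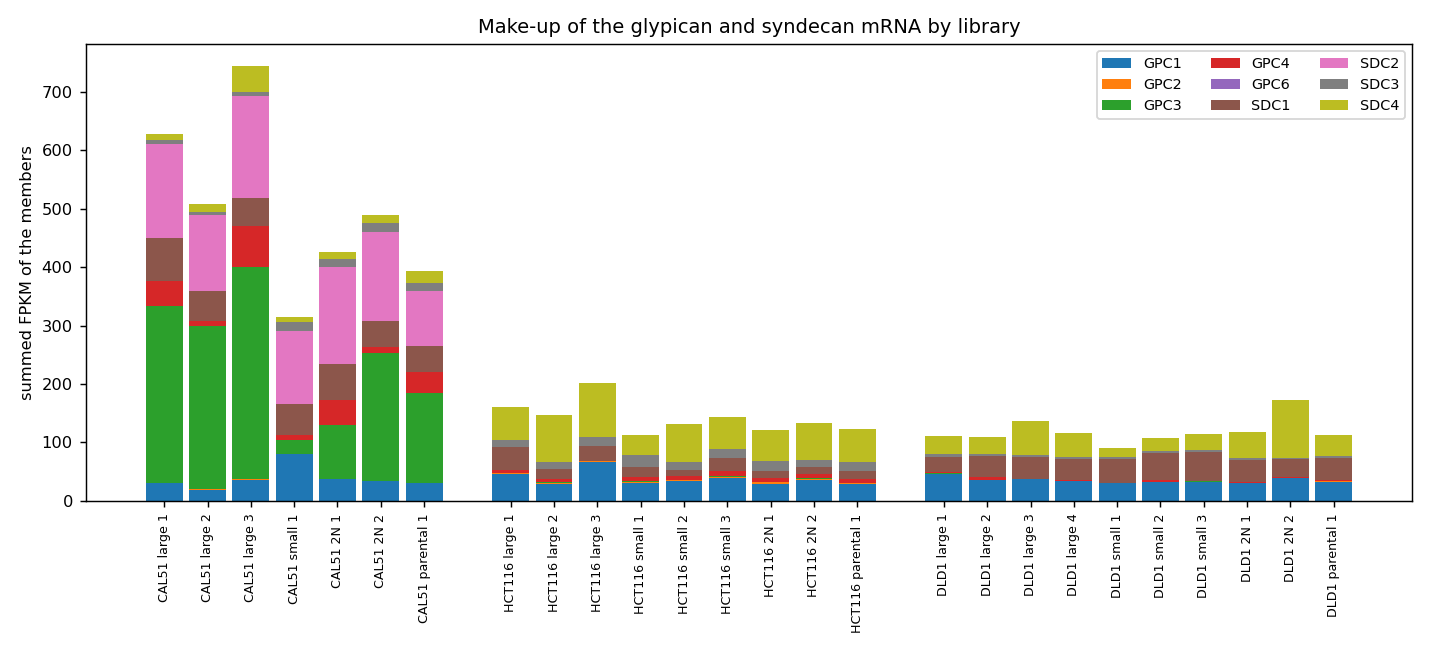
Summed FPKM of the 9 members (vertical axis) in each of the 26 libraries, 1 stacked bar per library by line and class, with 1 colour per member. GPC3 and SDC2 fill most of each CAL51 bar other than that of the small clone, where the GPC3 share is 7.48%, and SDC1, SDC4 and GPC1 fill most of the DLD1 bars.

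GPC3 (ENSG00000147257, GRCh38 chromosome X, 133535745 to 133985895, minus strand) binds Hedgehog and WNT ligands. In CAL51 it had 303, 280 and 364 FPKM in the 3 large 4N clones, 23.6 FPKM in the small 4N clone, 92.8 and 219 FPKM in the 2N clones and 155 FPKM in the parental library. All 3 large clones lay above every other CAL51 library, and the small clone lay below them all. The large clones averaged 315 ± 43.4 FPKM (n = 3), 13.4 times the level of the small clone and 2.03 times the 2N mean of 156 ± 89.0 FPKM (n = 2). Outside CAL51 no library reached 1 FPKM: HCT116 ranged over 0.181 to 0.873 FPKM, from 16 to 81 reads, and DLD1 over 0 to 0.156 FPKM, from 0 to 14 reads. These values were among those that led to the choice of the members. GPC3 was therefore given no test in any contrast that includes CAL51.

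GPC4 (ENSG00000076716, chromosome X, 133300103 to 133415490, minus strand) is the glypican next to GPC3, with 120 kb between the annotated genes, and binds FGF, WNT and BMP ligands. In CAL51 it had 42.2, 7.79 and 69.6 FPKM in the large clones, 8.66 FPKM in the small clone, 42.1 and 10.3 FPKM in the 2N clones and 35.8 FPKM in the parental library. The values fell into a lower and a higher set that did not follow the classes, since 1 large, 1 small and 1 2N clone were near or below 10.3 FPKM. The GPC3 and GPC4 levels went together in some of these libraries and not in others: large clone 3 was the highest and the small clone low in both, whereas large clone 2 had 280 FPKM of GPC3 and 7.79 FPKM of GPC4.

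In HCT116, GPC4 had 6.46, 6.45 and 0.279 FPKM in the large clones, 8.32, 5.49 and 9.80 FPKM in the small clones, 7.89 and 6.69 FPKM in the 2N clones and 6.58 FPKM in the parental library. Large clone 3 stood apart, with 46 reads against 960 to 1651 in the other 8 libraries. In DLD1 it had 2.15, 5.04, 0.223 and 2.65 FPKM in the large clones, 0.0652, 2.55 and 0.45 FPKM in the small clones, 0.518 and 1.16 FPKM in the 2N clones and 1.65 FPKM in the parental library. Clones of the same class thus differed widely in DLD1. The small clones had 12 to 387 reads and the large clones 34 to 625 reads, whereas the 2N clones differed by less.

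GPC1 (ENSG00000063660, chromosome 2, 240435671 to 240468078, plus strand) is widely expressed and binds FGF2 and other growth factors. In CAL51 it had 30.8, 18.9 and 35.7 FPKM in the large clones, 80.2 FPKM in the small clone, 36.7 and 33.4 FPKM in the 2N clones and 29.8 FPKM in the parental library. The small clone was the highest of all 26 libraries, at 2.82 times the mean of the large clones. In HCT116 the large clones had 45.5, 29.4 and 67.0 FPKM, the small clones 30.4, 34.3 and 39.2 FPKM, the 2N clones 28.5 and 36.1 FPKM and the parental library 28.5 FPKM. In DLD1 the large clones had 46.3, 35.1, 36.8 and 33.2 FPKM, the small clones 30.8, 31.7 and 32.8 FPKM, the 2N clones 31.0 and 38.5 FPKM and the parental library 33.1 FPKM. GPC1 was the glypican whose level differed least between lines. Each library had at least 3363 GPC1 reads. AC110619.1, annotated on the opposite strand inside the gene, had up to 533 reads, and without the strand setting of the counting the share of either in the other is unknown.

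GPC2 (ENSG00000213420, chromosome 7, 100169606 to 100177372, minus strand), known from the developing nervous system and from neuroblastoma, was low throughout. It lay between 0.818 and 3.27 FPKM in HCT116, between 0.332 and 0.675 FPKM in DLD1 and between 0.0362 and 1.17 FPKM in CAL51, where the lowest value, in the small clone, rested on 4 reads. GPC6 (ENSG00000183098, chromosome 13, 93226842 to 94407401, plus strand) had 6 reads in all 26 libraries, 5 of them in the CAL51 parental library. It did not pass the filter on low values (1 FPKM or more in at least 3 libraries), so 8 of the 9 members were tested.

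SDC2 (ENSG00000169439, chromosome 8, 96493351 to 96611780, plus strand), the syndecan typical of mesenchymal cells, had 161, 131 and 174 FPKM in the CAL51 large clones, 126 FPKM in the small clone, 165 and 152 FPKM in the 2N clones and 94.2 FPKM in the parental library. In HCT116 and DLD1 it had 1 read in all 19 libraries together. The other 18 of them had 0 reads, which allows up to 0.0168 to 0.0265 FPKM per library for a count of 3, and this covers counting error only. The lowest CAL51 library was at least 3550-fold higher than the highest of those floors. SDC2 was therefore the most sharply line-restricted of the syndecans, at a level that varied little among the CAL51 clones.

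SDC1 (ENSG00000115884, chromosome 2, 20200797 to 20225433, minus strand), the main syndecan of epithelia and plasma cells, was found in every library. In HCT116 it had 38.3, 17.2 and 25.3 FPKM in the large clones, 16.8, 11.4 and 21.6 FPKM in the small clones, 11.6 and 12.2 FPKM in the 2N clones and 13.9 FPKM in the parental library. Large and small clones overlapped, and large clone 1 was the highest. In DLD1 it had 26.7, 36.2, 38.2 and 34.7 FPKM in the large clones, 40.5, 46.6 and 49.6 FPKM in the small clones, 38.7 and 30.6 FPKM in the 2N clones and 38.1 FPKM in the parental library. There every large clone lay below every small clone. CAL51 lay between 44.4 and 74.6 FPKM.

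SDC3 (ENSG00000162512, chromosome 1, 30869467 to 30908761, minus strand), known as the syndecan of nerve and muscle, had 5.46, 4.12 and 7.58 FPKM in the CAL51 large clones, 14.3 FPKM in the small clone, 14.2 and 15.2 FPKM in the 2N clones and 13.5 FPKM in the parental library. The large clones averaged 5.72 ± 1.74 FPKM (n = 3), and the 4 other CAL51 libraries lay close together, above all of them. HCT116 ranged over 10.6 to 19.8 FPKM and DLD1 over 2.75 to 4.32 FPKM, with no such gap between classes.

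SDC4 (ENSG00000124145, chromosome 20, 45325288 to 45348424, minus strand), a syndecan of focal adhesions, varied most among the syndecans of DLD1. It had 30.3, 28.7, 57.7 and 40.8 FPKM in the DLD1 large clones, 15.7, 22.5 and 27.9 FPKM in the small clones, 43.1 and 99.6 FPKM in the 2N clones and 35.2 FPKM in the parental library. All small clones lay below all large clones, and 2N clone 2 was the highest. In HCT116 it had 55.5, 80.3 and 91.6 FPKM in the large clones, 35.2, 64.9 and 54.9 FPKM in the small clones, 53.9 and 62.7 FPKM in the 2N clones and 56.9 FPKM in the parental library. In CAL51 it lay between 10.1 and 19.8 FPKM other than in large clone 3, at 44.3 FPKM. The pseudogene SDC4P had 3 reads in all 26 libraries.

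The lines were compared over their 2N clones (n = 2 per line) with limma on log2(FPKM + 1), with p-values adjusted over the 14835 genes tested and a threshold of 0.05. Between CAL51 and HCT116, 45.4% of all tested genes passed, and 4 of 7 tested members did (GPC3 was not tested). Among them SDC2 passed the filter on low values only through the CAL51 libraries, and GPC2 through 8 of 9 HCT116 libraries and 1 CAL51 library. Entry through the line where a gene is high favours a difference, so both are described without a p. SDC1 was higher, at 54.0 FPKM in CAL51 and 11.9 FPKM in HCT116, a log2 difference of 2.07 ± 0.31 (SE) with an adjusted p of 3.2e-05. SDC4 was lower, at 13.2 FPKM in CAL51 and 58.3 FPKM in HCT116, with a log2 difference of -2.06 ± 0.52 (adjusted p = 0.00339). SDC2 averaged 159 FPKM in CAL51 and had no reads in HCT116 2N clones, and GPC2 averaged 0.464 FPKM in CAL51 and 2.64 FPKM in HCT116. Between CAL51 and DLD1, 40.1% of all genes passed, and again 4 of 7 members, SDC2 among them with no reads in DLD1. SDC3 (1.94 ± 0.24, adjusted p = 3.32e-06) and GPC4 (3.61 ± 0.95, adjusted p = 0.00553) were higher in CAL51, and SDC4 was lower (-2.23 ± 0.52, adjusted p = 0.0022). The GPC4 call was lost without 2N clone 1 of CAL51, at 2.65 (adjusted p = 0.0862), and the SDC4 call without 2N clone 2 of DLD1, at -1.64 (adjusted p = 0.0503).

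Between HCT116 and DLD1, both colorectal, 39.6% of all genes passed and 3 of 8 members. SDC3 was higher in HCT116, at 14.7 FPKM against 3.12 FPKM in DLD1 (1.93 ± 0.24, adjusted p = 4.91e-06). SDC1 was lower, at 11.9 FPKM against 34.7 FPKM in DLD1 (-1.46 ± 0.31, adjusted p = 0.00122). GPC2, the other of the 3, averaged 2.64 FPKM in HCT116 and 0.373 FPKM in DLD1, where no library reached 1 FPKM. It passed the filter on low values almost only through HCT116, so it is described without a p. The 8 include SDC2, with no reads in the 2N clones of either line, and GPC3, under 1 FPKM in both lines. Both passed the filter only through CAL51. Nothing particular to the members is read from these counts. GPC1 passed in none of them, with log2 differences of 0.12 (95% interval -0.5 to 0.75) for CAL51 minus HCT116, 0.02 (-0.6 to 0.64) for CAL51 minus DLD1 and -0.10 (-0.73 to 0.52) for HCT116 minus DLD1. The 3 comparisons share their 2N clones and are not independent.

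The size class of 4N clones was compared in HCT116 and DLD1, which had at least 3 clones per class. No member passed in HCT116, where 0.445% of all genes did. At an unadjusted p under 0.05 there were 2 of 8 members, SDC1 and GPC2, against 15.4% of all genes. SDC1 averaged 27.0 ± 10.6 FPKM in large clones and 16.6 ± 5.09 FPKM in small clones (SD, n = 3 each), a log2 difference of 0.64 ± 0.25 (95% interval 0.11 to 1.18, limma adjusted p = 0.235). Without large clone 2 the difference was 0.91 ± 0.25 with an adjusted p of 0.0377, in a fit that called 6.98% of all genes. The 5 epithelial markers EPCAM, CDH1, KRT8, KRT18 and KRT19, none of them at 0, summed to 1600 to 2490 FPKM in the HCT116 large clones, 1160 to 1570 FPKM in the small clones and 1030 to 1070 FPKM in the 2N clones, and their part in the SDC1 values was not tested. GPC2 averaged 1.36 FPKM in large clones and 2.17 FPKM in small clones (-0.45 ± 0.20, adjusted p = 0.291). GPC4 differed by -1.07 ± 0.78 (adjusted p = 0.561, interval -2.7 to 0.57), an estimate that holds the low value of large clone 3.

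In DLD1 no member passed either, where 0.472% of all genes did, and 0 of 8 had an unadjusted p under 0.05, against 6.65% of all genes. SDC4 averaged 39.4 ± 13.3 FPKM in large clones (n = 4) and 22.1 ± 6.1 FPKM in small clones (n = 3), with a log2 difference of 0.79 ± 0.40 (interval -0.04 to 1.62, adjusted p = 0.813). SDC1 averaged 33.9 ± 5.03 FPKM in large clones and 45.6 ± 4.66 FPKM in small clones (-0.42 ± 0.24, adjusted p = 0.918). GPC1 averaged 37.8 ± 5.8 FPKM in large clones and 31.8 ± 1.01 FPKM in small clones (0.24 ± 0.23, adjusted p = 1). The ranges of large and small clones did not overlap for these 3 of 8 members in DLD1, against 11.5% of all tested genes. In HCT116 this held for 0 of 8 members, against 14.3% of all tested genes. The 8 include SDC2, which has no reads in these clones and so could not differ, and GPC3, which is under 1 FPKM in both lines. Both passed the filter only through CAL51, and GPC2 is under 1 FPKM in every DLD1 library. These counts are a description of 8 members and support nothing further.

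Over the mean of both lines, 0 of 8 members passed, where 0.364% of all genes did, and 1 had an unadjusted p under 0.05, against 13.2% of all genes. That was SDC4, which averaged 57.6 FPKM in large clones and 36.8 FPKM in small clones over the lines, with a log2 difference of 0.67 ± 0.29 (interval 0.06 to 1.28, adjusted p = 0.323). The difference between the lines in the size effect was also tested, and 0.155% of all genes and 0 of 8 members passed, with 1 of 8 members and 9.13% of all genes at an unadjusted p under 0.05. SDC1, whose estimates have opposite signs in the lines, had an HCT116 minus DLD1 difference of 1.06 ± 0.35 (interval 0.33 to 1.8), an unadjusted p of 0.00679 from limma and an adjusted p of 0.362. Voom on the recovered reads called 0 members in each of these 4 comparisons.

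**Figure D3:**
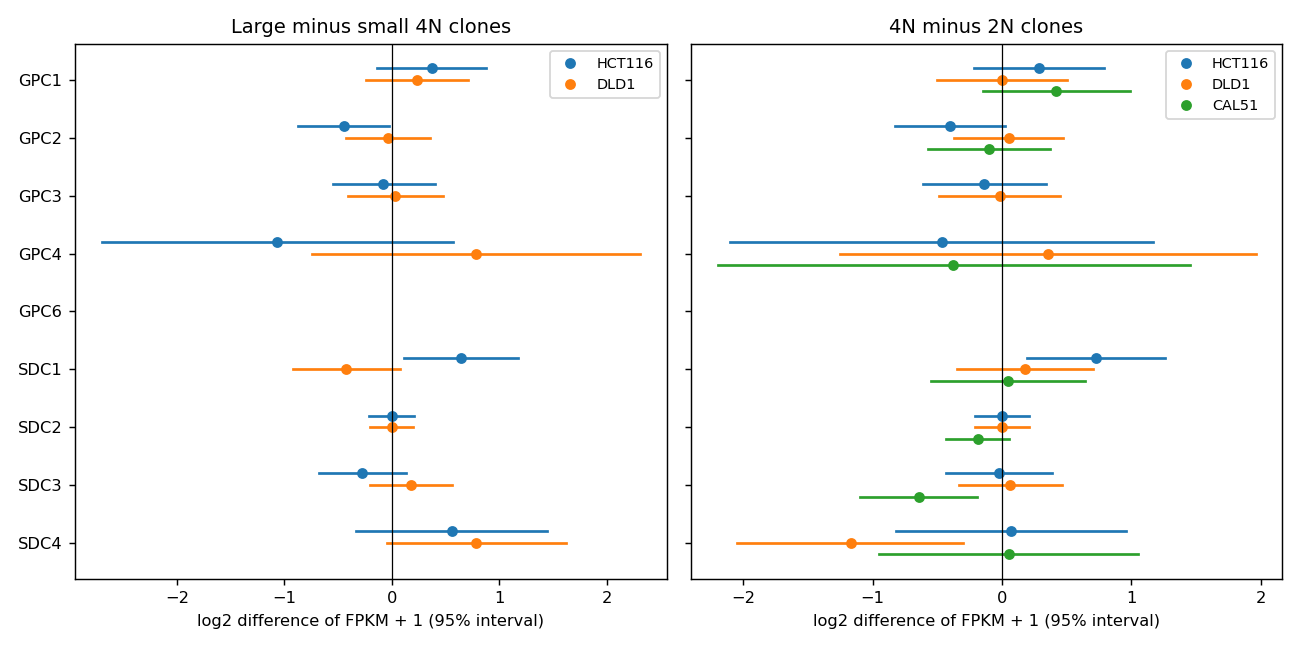
Log2 difference of each member (horizontal axis, log2(FPKM + 1) scale) in large against small 4N clones of HCT116 and DLD1 (left) and in 4N against 2N clones of the 3 lines (right), as points with 95% intervals from limma; GPC6 and GPC3 in CAL51 were not tested and have no point. The intervals that leave out 0 are those of SDC1 (above 0) and GPC2 (below 0) for large against small in HCT116, and those of SDC1 in HCT116 (above 0), SDC4 in DLD1 and SDC3 in CAL51 (both below 0) for 4N against 2N, and none of the differences passes after adjustment over 14835 genes.

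Ploidy was compared within each line as the mean of the large and small 4N groups against the 2N clones. These comparisons also set drug-exposed against unexposed cells, so ploidy and exposure cannot be told apart in them. In HCT116, 0.108% of all genes passed and 0 of 8 members, with 1 member and 8.73% of all genes at an unadjusted p under 0.05. This was SDC1, whose 4N clones averaged 21.8 FPKM and 2N clones 11.9 ± 0.402 FPKM (n = 2), a log2 difference of 0.72 ± 0.25 with an adjusted p of 0.368. In DLD1, 0.0337% of all genes passed and 0 of 8 members, with 1 member and 5.01% of all genes at an unadjusted p under 0.05. SDC4 averaged 30.7 FPKM in DLD1 4N clones and 71.4 ± 40.0 FPKM in 2N clones (n = 2), a log2 difference of -1.17 ± 0.42 with an adjusted p of 0.782.

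In CAL51, 0.108% of all genes and 0 of 7 tested members passed between 4N and 2N clones, with 1 member and 2.93% of all genes at an unadjusted p under 0.05. SDC3 had a log2 difference of -0.65 ± 0.22 with an adjusted p of 1. The 4N value there gives the single small clone the same weight as the 3 large clones. Without the small clone, the comparison is of large 4N with 2N clones, and SDC3 fell to 5.72 ± 1.74 FPKM in large clones (n = 3), against 14.7 ± 0.676 FPKM in 2N clones (n = 2). The log2 difference was then -1.26 ± 0.22 with an adjusted p of 0.00899, in a fit that called 0.465% of all genes, so that this call depends on which 4N clones are counted. Voom on the recovered reads called 0 members in the 3 ploidy comparisons.

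CAL51 large and small clones are described without a test, since there was 1 small clone and since GPC3 was chosen from this contrast. On the log2 scale the large minus small difference was 3.68 for GPC3, 1.63 for GPC4, 0.81 for SDC4, 0.74 for GPC2, 0.29 for SDC2, 0.11 for SDC1, -1.22 for SDC3 and -1.51 for GPC1. The small clone lay outside the range of the large clones for GPC1, GPC2, GPC3, SDC2, SDC3 and SDC4, and inside it for GPC4 and SDC1. Its distance from the 2N and parental libraries differed by member. GPC1, GPC2, GPC3, GPC4 and SDC4 of the small clone lay outside the range of those 3 libraries. SDC1, SDC2 and SDC3 lay inside it, with SDC3 at 14.3 FPKM in the small clone, against 13.5 to 15.2 FPKM in the 2N and parental libraries. The CAL51 libraries also differed in genes used as markers of cell types. The 6 fibroblast markers COL1A1, COL1A2, COL3A1, DCN, LUM and PDGFRB summed to 4.48 to 38.0 FPKM in large clones, 0.851 FPKM in the small clone, 3.62 to 28.8 FPKM in 2N clones and 46.9 FPKM in the parental library, with DCN at 0 in all 7 and LUM at or below 0.00987 FPKM. The 5 epithelial markers, none of them at 0, summed to 205 to 3900 FPKM in large clones, 1220 FPKM in the small clone and 298 to 1260 FPKM in 2N clones. Their part in the GPC3 values was not tested.

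Each 4N clone was also set against the mean of its line's 2N and parental libraries, beside the median difference of the genes on the same chromosome (mean of 5 FPKM or more in the line), after the median of all such genes in the clone was subtracted from both. The members named here were picked for a large difference, and each lay far from its chromosome's median. A median over a whole chromosome cannot show a change in a part of it, and copy number was not tested. GPC4 in HCT116 large clone 3 differed by -2.74 on the log2 scale, with a median of -0.10 for chromosome X. GPC3 in the CAL51 small clone differed by -2.68 and GPC4 by -1.54, with a median of -0.12 for chromosome X. SDC3 in the 3 CAL51 large clones differed by -1.39, -1.56 and -0.82, where the medians of chromosome 1 lay between -0.02 and 0.01. In the DLD1 small clones SDC4 differed by -1.68, -1.21 and -0.92, with medians of -0.01, -0.02 and -0.03 for chromosome 20. SDC1 in HCT116 large clone 1 differed by 1.49, with a median of 0.07 for chromosome 2. Other differences of this size included GPC4 at 1.59 in DLD1 large clone 2 and at -1.56 in CAL51 large clone 2. The medians of chromosome X were 0.01 and -0.05 there.

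**Figure D4:**
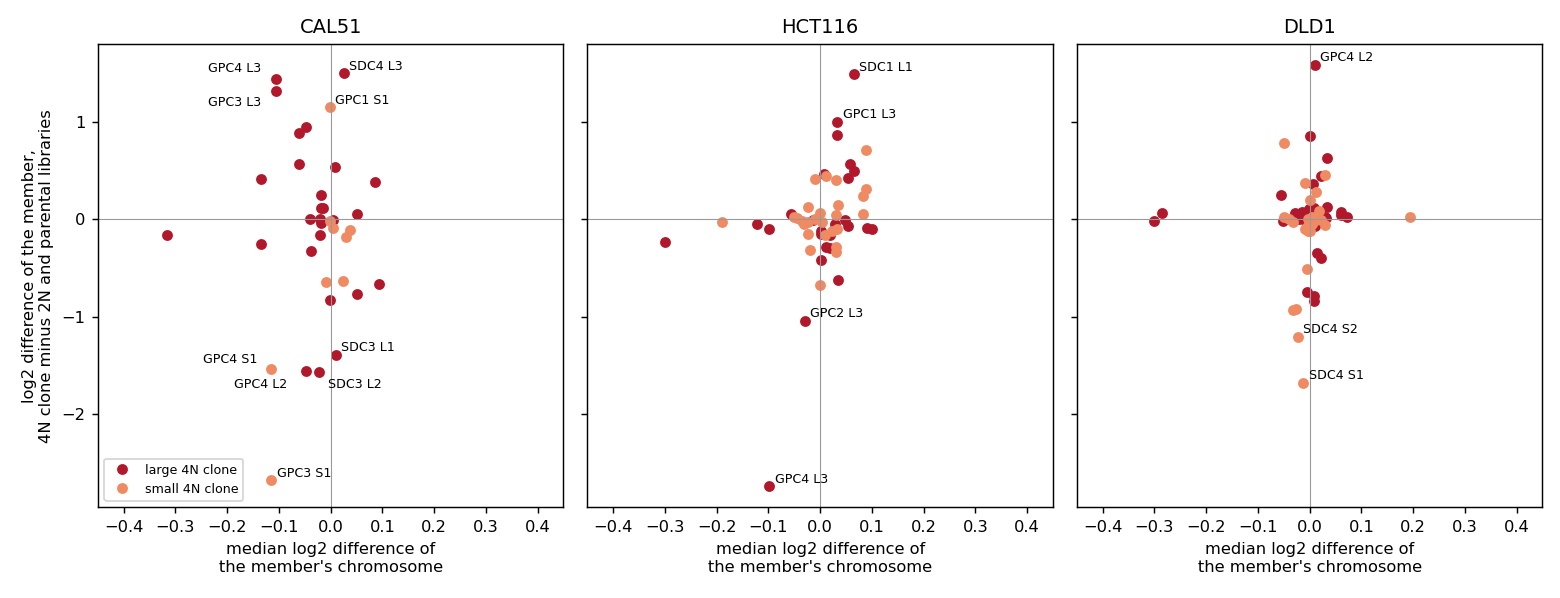
Log2 difference of each member in each 4N clone from the mean of its line's 2N and parental libraries (vertical axis) against the median log2 difference of the genes on the same chromosome in that clone (horizontal axis), with 1 panel per line and large and small clones in different colours. Labels give the member and the clone (L large, S small) for the points farthest from 0; the labelled members differ by over 1 in size while the chromosome medians stay within 0.12 of 0.

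For each line, the member with the widest range was set beside the protein-coding genes most like it over that line's libraries, by Pearson's r of log2(FPKM + 1). These are descriptions over libraries that share their clones, taken as the highest of many genes. For GPC4 in HCT116 (range 3.08 on the log2 scale) they were MAP3K3 (r = 0.994), MED16 (0.979) and CREBL2 (0.975), over 9 libraries and 10706 genes, and large clone 3 sets the range. For SDC4 in DLD1 (range 2.59) they were FUBP1 (r = 0.964), PPP2CB (0.962) and LEPROTL1 (0.957), over 10 libraries and 10015 genes. For GPC3 in CAL51 (range 3.89) they were MKS1 (r = 0.989), YPEL3 (0.983) and LLGL1 (0.977), over 7 libraries and 10414 genes. MKS1 lay between 2.11 and 3.08 FPKM, a far narrower range than that of GPC3.

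Beside the core proteins, 8 lists of genes that make, trim, release or use heparan sulfate were examined, with 91 tested genes in all. None of the 91 passed in any of the 7 comparisons of size class and ploidy within and over the lines, by limma or by voom on the recovered reads, and 4 to 10 of them (4.4% to 11%) had an unadjusted p under 0.05, against 2.93% to 15.4% of all genes. Between lines, 36 were higher and 18 lower in CAL51 than in HCT116, which is 59.3% of the 91 against 45.4% of all genes. In CAL51 against DLD1, 41 were higher and 12 lower (58.2% against 40.1%), and in HCT116 against DLD1, 32 were higher and 15 lower (51.6% against 39.6%). No test was made of these shares. The other heparan sulfate proteoglycans, which are secreted into the matrix or carried on the surface, had 5 of 6 higher and 1 lower in CAL51 than in HCT116. The median log2 difference was 2.01 against 0.02 over all genes, of which 45.4% passed in either direction. In CAL51 against DLD1, 3 of 6 were higher and 0 lower (median 1.08), where 40.1% of all genes passed. In HCT116 against DLD1, 3 were higher and 3 lower (median 0.26), where 39.6% passed. Of these proteoglycans, AGRN (agrin) was at 123 FPKM in CAL51 and 25.4 FPKM in HCT116, HSPG2 (perlecan) at 29.3 and 7.02 FPKM, and COL18A1 at 90.4 and 23.4 FPKM in the same lines. AGRN was not among the 3 that passed between CAL51 and DLD1. In DLD1, COL18A1 was at 0.335 FPKM, a log2 difference of 6.09 ± 0.27 from CAL51. The DLD1 mean is under the 1 FPKM of the filter on low values, so no p is given.

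Of the 16 tested polymerases and modifying enzymes, 6 were higher and 2 lower in CAL51 than in HCT116, and 9 higher and 3 lower in CAL51 than in DLD1, where 45.4% and 40.1% of all genes passed in either direction. HS6ST1, which adds sulfate at the 6-O position of glucosamine, was at 162 FPKM in CAL51, against 15.6 FPKM in HCT116 (3.27 ± 0.30, adjusted p = 8.81e-08) and 9.78 FPKM in DLD1 (3.90 ± 0.30, adjusted p = 8.78e-09). HS6ST2, of the same family, was at 9.96 FPKM in HCT116 and listed at 0 in DLD1. HS3ST1, which makes the rare 3-O sulfate, was at 1.33 FPKM in CAL51 and 20.0 FPKM in HCT116 (-3.17 ± 0.42, adjusted p = 8.16e-06). EXT1, a chain polymerase, was at 14.7 FPKM in CAL51 and 4.2 FPKM in HCT116 (1.60 ± 0.21, adjusted p = 8.16e-06).

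NOTUM, known to cut glypican anchors and to inactivate WNT, averaged 9 FPKM in the HCT116 2N clones, against 0.252 FPKM in CAL51 and 0.462 FPKM in DLD1. By these means it was over 1 FPKM in HCT116 alone. It may have passed the filter on low values only through that line, so it is described without a p. Of the 9 tested FGF ligands and receptors, which use heparan sulfate, 3 were higher and 2 lower in CAL51 than in HCT116. The median log2 difference was -0.22, and 45.4% of all genes passed in either direction. In CAL51 against DLD1, 6 were higher and 1 lower (median 2.25), where 40.1% of all genes passed. In HCT116 against DLD1, 6 were higher and 0 lower (median 1.16), where 39.6% of all genes passed. FGF18 was at 128 FPKM in CAL51 and 0.923 FPKM in HCT116 (6.08 ± 0.35). FGFR2 was at 36.9 FPKM in CAL51 and 3.84 FPKM in HCT116 (2.92 ± 0.31, adjusted p = 5.96e-07). In the other direction, FGF19 was listed at 0 in CAL51 and at 45.5 FPKM in HCT116, and FGFRL1 was at 10.4 FPKM in CAL51 and 40.5 FPKM in HCT116 (-1.90 ± 0.39, adjusted p = 0.000624). Of the 12 cytoplasmic partners of syndecans, 3 were higher and 4 lower in CAL51 than in HCT116, where 45.4% of all genes passed in either direction. TIAM1, an activator of RAC1 that binds syndecan tails, was at 0.274 FPKM in CAL51 and 17.6 FPKM in HCT116 (-3.86 ± 0.45). PRKCA, the kinase that SDC4 recruits, was at 6.62 FPKM in CAL51 and 0.791 FPKM in DLD1 (2.08 ± 0.22). FGF18, TIAM1 and PRKCA are given without a p, since the lower line averaged under the filter value of 1 FPKM. These lists were chosen with earlier results of these libraries known and got no test of their own.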

How the data were processed

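Poly-A RNA was read from directional dUTP libraries, per the labels' protocols. Per the submitters' processing notes, the tools were fastp, HISAT2 version 2.0.5 and featureCounts version 1.5.0-p3 with the GRCh38 build, and DESeq2 was named. The strand setting of the counting is not given in the sources used here. The deposited values are FPKM for 58735 genes and were used as the authors gave them. Reads were recovered from them through gene length, whole to within 0.01 for 100% of genes in every library, and gave the depths and 1 alternative.

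The 14835 genes that reached 1 FPKM in 3 or more libraries entered the test. Their log2(FPKM + 1) values were fitted in limma (3.58.1, under R 4.3.3) by the mean of each of the 12 groups of line and class. The variances were moderated along an intensity trend, on 14 residual and 3.84 prior degrees of freedom. A difference is on the log2(FPKM + 1) scale, which understates the change of low genes. The reported p-values were computed from those deposited values, two-sided, and adjusted by the Benjamini-Hochberg method over all tested genes. The procedure was tested on simulated data. Each gene had 1 variance for all 12 groups, so the spread behind a comparison came from all 3 lines. The small class of CAL51, with 1 clone, added nothing to it. Other pseudocounts, filters, scalings, sample sets, a replicate block, voom on the recovered reads and leaving out each clone were tried.

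The members and lists were chosen with earlier results of these data known. All members were named. Of each list, up to 4 genes per comparison that passed could be named, in order of adjusted p. For each line, the 3 protein-coding genes most like its widest-ranging member were named. GPC5, SDC4P and the marker genes stand outside this. Figures and sequence counts were made with Python version 3.11.15, pandas version 2.3.3, numpy version 2.4.6 and matplotlib version 3.10.9. Promoter sequences are from RefSeq (GRCh38.p14), and gene coordinates are those of the deposited table.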

Additional observations from a re-analysis of the deposited data

Results flagged for a closer look

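The GPC1 estimates for large against small clones have opposite signs in DLD1 and CAL51. In DLD1 all 4 large clones lay above all 3 small clones (log2 difference 0.24), a difference that did not pass (95% interval -0.24 to 0.71, limma adjusted p = 1), and in CAL51 all 3 large clones lay below the small clone (log2 difference -1.51). The difference between the lines was not tested, and the CAL51 side rests on 1 small clone. In HCT116 the large and small clones overlapped.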

How the results depend on the processing

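In 5 of the 10 comparisons the number of members past the threshold stayed within 1.5 times of the value given under every alternative, and in the other 5 at least 1 alternative moved it. No member called in a comparison changed its sign under any alternative run. Large against small clones of HCT116 gave 0 to 1 members when each clone was left out in turn, where the 1 was SDC1 without large clone 2, and 4N against 2N clones of CAL51 gave 0 to 1, where the 1 was SDC3 without the small clone. CAL51 against HCT116 gave 2 members instead of 4 when genes needed a mean of 1 FPKM in each line, since SDC2 and GPC2 are then not tested. HCT116 against DLD1 gave 5 instead of 3 when fitted without CAL51, with GPC3 (adjusted p = 0.0335) and GPC4 (adjusted p = 0.0492) added. The log2 differences stayed at 0.48 for GPC3 and 2.19 for GPC4, while the SE fell from 0.28 to 0.17 and from 0.95 to 0.84. GPC3 was under 1 FPKM in every library of both lines and passed the filter only through CAL51. Of the 66 pairs of a member and a comparison that did not pass, 61 passed under no alternative and 5 under at least 1.

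The replicate block gave 1 member instead of 0 for DLD1 4N against 2N clones (SDC4, -1.44 ± 0.23, adjusted p = 0.0444), and GPC4 passed with it in HCT116 against DLD1 (2.19 ± 0.64, adjusted p = 0.0189). Whether clone numbers pair the samples was not settled. Of 16 same-numbered pairs, 6 had a correlation of their deviations over 0.1, all in HCT116 and CAL51, in a range of -0.056 to 0.205. The highest in DLD1 was 0.085. Differently numbered pairs were not compared, so these values have no reference.

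The counts over all genes depended more on the settings. Large against small called 66 genes in HCT116, with 3 to 1035 under the alternatives, and 70 in DLD1, with 4 to 91. The 3 were called when HCT116 was fitted without the other lines. With 1 to 4 clones per class, differences such as that of SDC4 in DLD1 have intervals that include both 0 and over 1.5 on the log2 scale. GPC6, and SDC2 outside CAL51, are limited by depth, and GPC2 and GPC3 in DLD1 rest on few reads.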
